A study of Mus musculus with 2 samples.

Results

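The Zfp genes are mouse genes whose symbol is Zfp followed by a number, most of which encode DNA-binding proteins with zinc fingers. They were followed here in 2 cultures of CD4 T cells, 1 grown as CD103+ Th1 cells and 1 as Th1 cells, with 1 Affymetrix expression array each. The genes were chosen by their symbol in the platform annotation, leaving out Zfp36, Zfp36l1 and Zfp36l2, and selected on measured signal. A gene was kept where its brightest probe set, a group of short probes read as 1 signal, exceeded the median signal of all probe sets other than array controls on at least 1 array. This median over both arrays, 78.5 in arbitrary units, is called the floor. Of 333 Zfp genes with a named probe set, 250 were kept and 83 were not, and of 18193 genes on the whole array 11162 were kept in the same way. Just inside the floor were Zfp532, Zfp882 and Zfp60, with brighter signals of 79.9, 80.5 and 81.0. Just outside were Zfp661, Zfp94 and Zfp169, with 77.4, 77.1 and 76.8. The signal chose the genes, so their level is a description. The ratio between the arrays was not part of the rule, except that a gene passing on 1 array alone has its direction fixed by it. The gene family was taken up with earlier results of these data known, and nothing below carries a test.

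Both cultures started from CD4 T cells of C57BL/6 spleens, sorted magnetically to a purity above 98%. The cells were stimulated through the T cell receptor and CD28 for 2 days and harvested 3 days later. The CD103+ Th1 medium contained 3 ng/ml of IL-4, 10 ng/ml of interferon gamma and 3 ng/ml of TGF-beta. The Th1 medium contained 1 ng/ml of IL-12 and 1 µg/ml of a blocking antibody to IL-4. The number of mice behind each culture is not in the labels. With 1 array in each group there is no spread between replicates, so no p-value or error can be given and each difference is one between these 2 arrays.

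A C2H2 zinc finger is a short loop held by a zinc ion between a pair of cysteines and a pair of histidines, and a row of such fingers can read a stretch of DNA. Many Zfp proteins also carry a KRAB domain, which recruits the corepressor TRIM28 and, through it, histone methyltransferases and deacetylases that silence retroelements and some genes. Other members act as activators, in RNA processing, in ribosome assembly or as ubiquitin ligases. KRAB zinc-finger genes multiplied by local duplication and lie in clusters in the genome.

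A cluster on chromosome 17 shows how alike such neighbours can be. Zfp119a, Zfp959 and Zfp119b follow each other in the gene table, and the highest ratio of the family, that of Zfp959, lies here. Their promoter windows are printed because the 3 windows are nearly the same sequence. They come from the RefSeq table (build GRCm38.p6, 250 bases before to 50 after a start). Zfp120, the gene with the next highest ratio, and Zfp777, a gene with a lower signal in CD103+ Th1, are printed for comparison. Capitals mark CCAAT, the CCAAT box, and CGGAAG, the core of ETS factor sites, on either strand.
Zfp119a (chr17:55878904-55879203, minus strand): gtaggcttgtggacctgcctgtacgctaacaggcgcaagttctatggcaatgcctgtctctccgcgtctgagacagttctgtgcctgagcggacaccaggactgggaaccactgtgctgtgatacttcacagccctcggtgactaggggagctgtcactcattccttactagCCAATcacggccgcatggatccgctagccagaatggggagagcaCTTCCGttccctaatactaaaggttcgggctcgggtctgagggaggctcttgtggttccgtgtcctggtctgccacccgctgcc
Zfp959 (chr17:55891843-55892142, plus strand): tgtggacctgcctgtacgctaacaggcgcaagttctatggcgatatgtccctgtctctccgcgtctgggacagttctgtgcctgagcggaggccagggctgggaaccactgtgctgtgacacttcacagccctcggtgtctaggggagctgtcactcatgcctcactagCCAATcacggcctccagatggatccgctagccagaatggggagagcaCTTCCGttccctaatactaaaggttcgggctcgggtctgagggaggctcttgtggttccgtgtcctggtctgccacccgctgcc
Zfp119b (chr17:55945210-55945509, minus strand): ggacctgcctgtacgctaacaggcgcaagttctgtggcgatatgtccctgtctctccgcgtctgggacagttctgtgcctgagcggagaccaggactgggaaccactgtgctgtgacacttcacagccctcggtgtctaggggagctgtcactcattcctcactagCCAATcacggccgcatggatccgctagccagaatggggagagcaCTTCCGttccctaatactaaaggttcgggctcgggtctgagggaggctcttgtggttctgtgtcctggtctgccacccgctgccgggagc
Zfp120 (chr2:150136629-150136928, minus strand): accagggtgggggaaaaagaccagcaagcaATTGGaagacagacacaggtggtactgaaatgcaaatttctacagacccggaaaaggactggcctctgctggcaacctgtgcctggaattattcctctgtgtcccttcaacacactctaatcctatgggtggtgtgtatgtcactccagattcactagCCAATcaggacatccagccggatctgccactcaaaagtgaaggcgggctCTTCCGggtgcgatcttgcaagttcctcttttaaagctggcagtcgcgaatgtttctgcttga
Zfp777 (chr6:48047745-48048044, minus strand): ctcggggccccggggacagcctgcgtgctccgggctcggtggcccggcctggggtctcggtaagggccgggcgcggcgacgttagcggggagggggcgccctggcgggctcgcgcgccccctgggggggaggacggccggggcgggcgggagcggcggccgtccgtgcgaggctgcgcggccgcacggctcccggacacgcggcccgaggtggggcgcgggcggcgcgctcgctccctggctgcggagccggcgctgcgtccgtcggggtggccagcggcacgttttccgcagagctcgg

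The Zfp959 window was identical to that of Zfp119b at 288 of 297 aligned positions (97.0%) and to that of Zfp119a at 282 of 300 (94.0%). Zfp119a and Zfp119b shared 281 of 294 positions (95.6%). Zfp120, on another chromosome, shared 52.1% to 54.1% with the 3. The windows of Zfp119a, Zfp959 and Zfp119b held 1 CCAAT box and 1 ETS core each, that of Zfp120 held 2 CCAAT boxes and 1 ETS core, and that of Zfp777 held neither. The Zfp119b window is 1 of 2 listed for that gene, picked by the number of these motifs in it.

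Most Zfp genes had a slightly higher signal in CD103+ Th1 than in Th1. Of the 250 genes, 184 had a log2 ratio (CD103+ Th1 over Th1) above 0 and 66 below, a share of 73.6% above 0 against 47.4% of all 11162 measured genes. The median log2 ratio of the Zfp genes was 0.23, a signal 1.17-fold higher, against -0.03 over all measured genes. The quartiles lay at -0.03 and 0.47 for Zfp genes and at -0.35 and 0.30 for all genes. In 195 of the 250 genes the arrays differed by less than 1.5-fold.

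**Figure D1:**
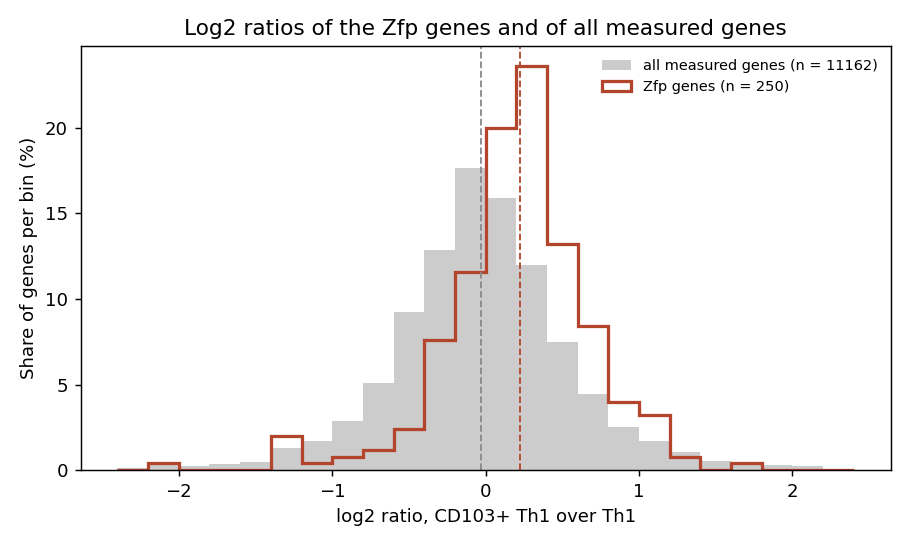
Share of genes in each bin of 0.2 of the log2 ratio between the CD103+ Th1 and Th1 arrays, for all 11162 measured genes (grey, filled) and the 250 Zfp genes (red outline), with dashed lines at the medians of -0.03 and 0.23. The red outline lies to the right of the grey bars, and 111 measured genes beyond 2.4 in either direction are not drawn.

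Ratios of 2-fold or more were no more frequent among Zfp genes than among all genes. At least 2-fold higher in CD103+ Th1 were 11 of 250 (4.40%, against 5.04% of all measured genes), and at least 2-fold lower were 7 (2.80%, against 4.88%). This split depended on the scaling and the floor, with 8 higher and 8 lower after quantile normalization, and 8 higher and 9 lower when a pseudocount replaced the floor. At a smaller size the directions were less even. At least 1.5-fold higher were 43 genes (17.2%, against 12.4% of all), and at least 1.5-fold lower were 12 (4.80%, against 13.4%). At 4-fold only Zfp608 passed, on the lower side.

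A gene under the floor on 1 array had its dimmer value set to the floor, so that its fold is a lower bound. This applied to 26 Zfp genes, 13 under the floor in Th1 and 13 in CD103+ Th1. The direction of these 26 was fixed by the array on which they passed the floor. The 224 genes above the floor on both arrays had a median log2 ratio of 0.25, with 171 above 0 (76.3%), against -0.02 and 48.2% for the 10045 genes of this kind in the whole table.

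**Figure D2:**
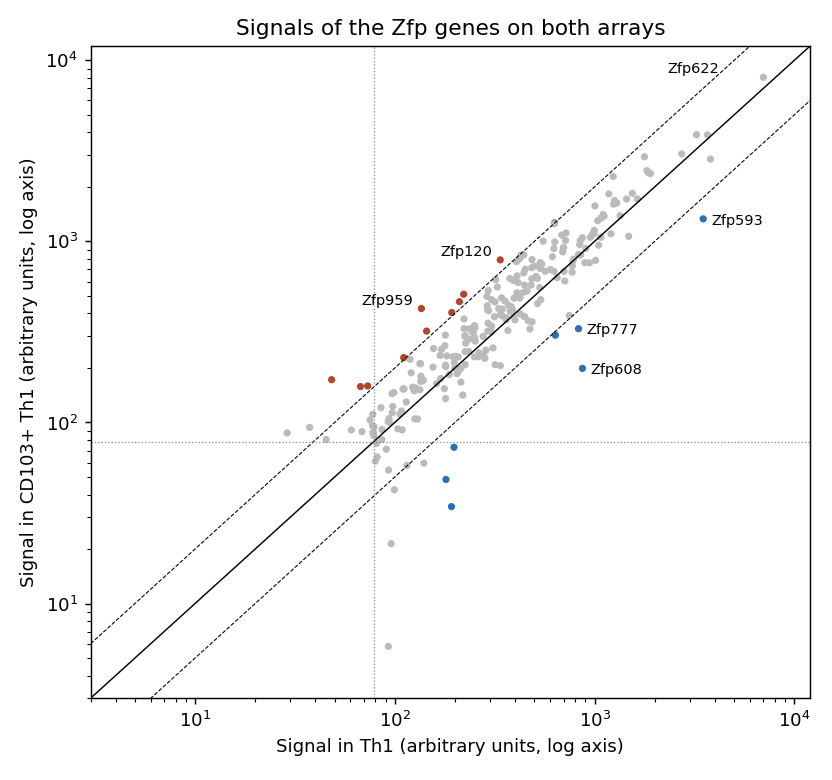
Signal of each of the 250 Zfp genes on the Th1 array (horizontal, arbitrary units, log axis) and the CD103+ Th1 array (vertical, arbitrary units, log axis), with the line of equal signals, dashed lines at 2-fold and dotted lines at the floor of 78.5. Red points are at least 2-fold higher and blue points at least 2-fold lower in CD103+ Th1 after the floor is applied, and most points lie a little above the line of equal signals.

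Zfp genes were dimmer than the genes of the table as a whole, with a median signal of 382 in CD103+ Th1 and 319 in Th1 against 700 and 689. Levels of different probe sets depend on the probes as well as on the transcript. The shift was seen in each of 4 classes of brightness, taken from the brighter of both signals. Among 45 Zfp genes at 1 to 2 times the floor the median log2 ratio was 0.16, against -0.06 for all 1659 genes of that class. It was 0.15 over 55 genes at 2 to 4 times the floor (all genes -0.05), 0.27 over 68 genes at 4 to 8 times (all genes -0.01) and 0.29 over 82 genes above 8 times (all genes -0.02). The shares above 0 were 66.7%, 65.5%, 80.9% and 76.8% in these classes, against 42.1%, 46.4%, 49.7% and 48.4% of all genes. The 26 Zfp genes under the floor on 1 array fall in the classes at 1 to 2 and 2 to 4 times the floor. The rule fixed their direction and their ratios are bounds, so those classes describe the shift less well. The classes above 4 times the floor hold none of them.

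**Figure D3:**
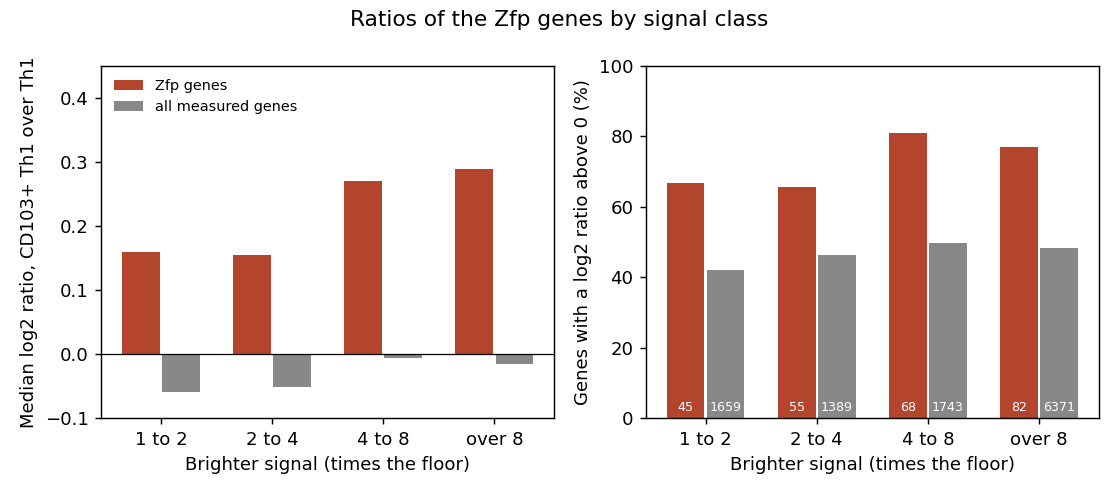
Median log2 ratio (left) and share of genes with a log2 ratio above 0 in percent (right) for Zfp genes (red) and all measured genes (grey), in classes of the brighter signal in times the floor, with the number of genes at the foot of the bars on the right. The red bar exceeds the grey bar in every class, and the median of Zfp genes runs from 0.15 to 0.29.

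The gene with the highest ratio was Zfp959, at 426 in CD103+ Th1 against 136 in Th1, 3.13-fold higher (log2 ratio 1.65). Its neighbour Zfp119b had 172 and 48.3, the latter under the floor, at least 2.20-fold higher. The other neighbour, Zfp119a, had 93.9 and 37.5, so that only a lower bound of the log2 ratio, 0.26, can be given. All 3 were brighter in CD103+ Th1, and 2 of the 3 lay under the floor in Th1. Those 2, Zfp119a and Zfp119b, passed the floor only in CD103+ Th1, so the rule fixed their direction. Genes with nearly the same sequence may share probe binding, and how far the 3 probe sets separate these transcripts was not tested.

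The other genes at the upper end were spread over several chromosomes. Zfp120 measured 791 in CD103+ Th1 against 337 in Th1, 2.35-fold higher. Zfp703, which encodes a corepressor of the NLZ family, had 510 and 221, 2.31-fold higher. Zfp827, whose human counterpart binds telomeres together with the NuRD complex, had 319 and 144, 2.21-fold higher. These 3 genes were above the floor on both arrays, and 1 measured probe set stood for each.

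Zfp318, which controls the alternative expression of IgD in B cells, measured 464 in CD103+ Th1 against 211 in Th1, 2.21-fold higher. Its 3 measured probe sets had log2 ratios between 0.04 and 1.14, with a mean of 0.60. Zfp182 had 405 and 193, 2.10-fold higher, with probe sets from 0.10 to 1.07 and a mean of 0.60. For both genes the 2-fold difference therefore holds for the brightest probe set and not for the mean of the probe sets.

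Zfp691 measured 228 in CD103+ Th1 against 111 in Th1, 2.06-fold higher, and Zfp362 had 1264 and 630, 2.01-fold higher. Zfp874b had 158 and, under the floor, 67.3, at least 2.01-fold higher. Zfp950 (1250 against 629) and Zfp141 (840 against 427) fell just short of 2-fold, at 1.99-fold and 1.96-fold. The remaining gene past 2-fold, Zfp689, was not within the naming rule because its probe sets lay on both sides of 0, from -0.20 to 1.02. Several of these genes lie so close to 2-fold that another scaling moved them across it.

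The gene with the lowest ratio was Zfp608, which represses the recombination genes Rag1 and Rag2 in developing thymocytes. It measured 199 in CD103+ Th1 against 869 in Th1, 4.37-fold lower in CD103+ Th1, and both of its probe sets were close together, at -2.17 and -2.13 on the log2 scale. Zfp593, whose product takes part in the assembly of the large ribosomal subunit, had 1332 in CD103+ Th1 against 3496 in Th1, 2.63-fold lower. Its second probe set had a log2 ratio of -0.07, and the mean of both was -0.73, short of 2-fold.

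Zfp777 measured 329 in CD103+ Th1 against 831 in Th1, 2.52-fold lower, and Zfp938 had 303 and 636, 2.10-fold lower. The other 3 genes at least 2-fold lower were under the floor in CD103+ Th1. Zfp821 had 73.0 there and 198 in Th1, at least 2.52-fold lower. Zfp516, which encodes a regulator of brown fat genes, had 34.3 and 192, at least 2.45-fold lower. Zfp365, which helps to keep the genome stable, had 48.5 and 180, at least 2.30-fold lower.

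The lower end thinned out fast below 2-fold. Zfp958 had 389 in CD103+ Th1 against 747 in Th1, 1.92-fold lower. Next in the family came Zfp296, outside the naming rule because it stayed below 2 times the floor, with 59.6 and 140, at least 1.78-fold lower. Zfp446 (206 and 338) was 1.64-fold and Zfp239 (142 and 219) 1.55-fold lower. Zfp473, which encodes a factor of histone mRNA processing, had 208 and 318, 1.52-fold lower. Zfp512 completed the 12 lowest genes of the naming rule, with 1067 and 1481, 1.39-fold lower. Between 1.5-fold and 2-fold there were 5 lower genes, against 32 higher genes.

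**Figure D4:**
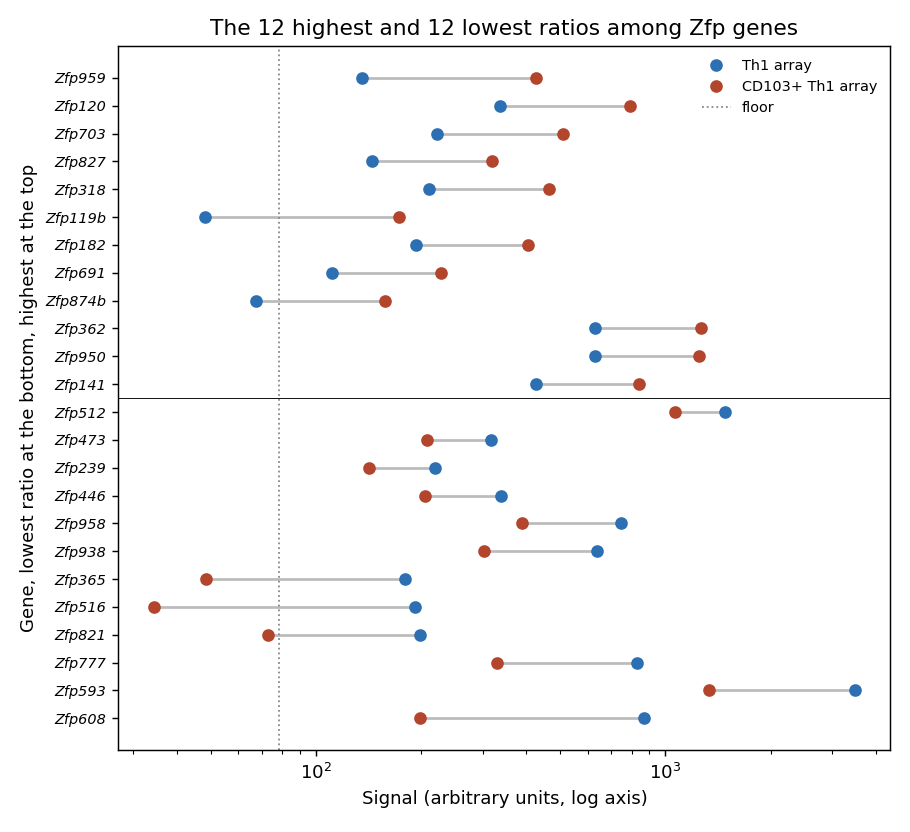
Signal on the Th1 array (blue) and the CD103+ Th1 array (red), in arbitrary units on a log axis, for the 12 highest and 12 lowest ratios of Zfp genes that reached 2 times the floor and had all probe sets in one direction. The dotted line is the floor of 78.5, below which Zfp119b and Zfp874b lie in Th1 and Zfp365, Zfp516 and Zfp821 in CD103+ Th1.

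The 5 Zfp genes with the highest mean log2 signal over both arrays differed by less than 1.5-fold. Zfp622, which encodes a factor of late ribosome assembly, had the highest signals, 8054 in CD103+ Th1 and 6996 in Th1, 1.15-fold higher. Zfp207, a spindle assembly factor, had 3875 and 3674, for a log2 ratio of 0.08, and its 6 probe sets spread from -0.51 to 0.50. Zfp445, which maintains genomic imprints, had 3881 and 3239, a log2 ratio of 0.26, and Zfp871 had 3042 and 2733, 1.11-fold higher. Their probe sets also disagreed, from -0.16 to 0.41 for Zfp445 and from -0.45 to 0.43 for Zfp871. On the brightest probe set Zfp330 was the exception in direction, with 2845 in CD103+ Th1 against 3804 in Th1, 1.34-fold lower. By the brighter of both signals Zfp593, 2.63-fold lower, ranked ahead of Zfp871.

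A list of 30 Zfp genes with known roles, taken up whatever their values, followed the family. Of these, 28 had a named probe set and 25 were above the floor. Among the 25, 21 had a log2 ratio above 0 and the median was 0.30. At least 2-fold higher was 1 (Zfp318) and at least 2-fold lower were 2 (Zfp608 and Zfp593), against 5.04% and 4.88% of all measured genes. Under the floor on both arrays were Zfp57, an imprint regulator of early embryos (7.66 and 4.16), and the developmental factor genes Zfp423 (0.80 and 2.22) and Zfp521 (20.4 in CD103+ Th1).

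Among the genes of chromatin and transcription, Zfp644, whose product works with a histone methyltransferase complex, measured 773 in CD103+ Th1 against 407 in Th1, 1.90-fold higher, but 4 probe sets from -0.15 to 0.93 on the log2 scale. Zfp217, a corepressor gene, had 2935 and 1777, 1.65-fold higher. Zfp281, which encodes a repressor and activator of stem cells, had 1828 and 1178, 1.55-fold higher, with both probe sets at 0.63 or more. These 3 lay at least 1.5-fold higher on their brightest probe set.

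The other transcription factor genes of the list lay closer to equality. Zfp292 had 2461 in CD103+ Th1 and 1828 in Th1, 1.35-fold higher, and Zfp384 had 1605 and 1245, 1.29-fold higher. Zfp410, which activates the chromatin remodeller gene Chd4, had 1628 and 1290, 1.26-fold higher. Zfp148 had 1342 and 1076, 1.25-fold higher, with 6 probe sets from -0.04 to 0.61. Zfp335, which is needed for the maturation of thymocytes, had 699 and 601, 1.16-fold higher. Zfp1 was 1.23-fold and Zfp110 1.19-fold higher. Apart from Zfp148 none of these showed a probe set below 0.

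Read from the brightest probe set, the genes for RNA-binding members stayed within 1.5-fold. Zfp346, whose product binds double-stranded RNA, measured 913 in CD103+ Th1 against 625 in Th1, 1.46-fold higher. The second probe set of Zfp346 had a log2 ratio of 1.06, past 2-fold, and the mean of both was 0.80. Zfp326, a factor of transcript elongation and splicing, had 1405 and 1103, 1.27-fold higher, and Zfp638, for a nuclear RNA-binding protein, had 1377 and 1115, 1.23-fold higher. Zfp106 had 1716 and 1639, a log2 ratio of 0.07, whereas the 4 probe sets of the gene ran from -0.56 to 0.08 with a mean of -0.24. The ubiquitin and SUMO ligase genes were level or slightly higher. Zfp91, for a ligase of the kinase NIK, had 2394 and 1860, 1.29-fold higher on its brightest probe set and -0.28 on the log2 scale on the other. Zfp598, for the ligase that marks collided ribosomes, had 841 and 852, and Zfp451, for a SUMO ligase, had 799 and 785.

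Of the KRAB zinc-finger genes with known targets, Zfp809, which silences murine leukaemia viruses, had 731 in CD103+ Th1 against 774 in Th1, 1.06-fold lower. Zfp568, which represses a placental Igf2 promoter, had 171 and 139, 1.23-fold higher. Neither differed by 1.5-fold.

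Where a gene had several probe sets, these mostly pointed the same way, among Zfp genes as among all measured genes. Of 90 Zfp genes with 2 or more probe sets above the floor on at least 1 array, 50 (55.6%) had all of them above 0, 7 (7.78%) had all below 0, and 33 were mixed. Over the 5236 measured genes with 2 or more such probe sets the shares were 31.5% all above 0 and 32.6% all below 0. Of those genes, 1880 were mixed. Of the 250 genes, 32 were read from probe sets whose suffix marks probes that may match several transcripts. Without such probe sets 236 Zfp genes had a median log2 ratio of 0.21.

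The shift was spread over the genome. Zfp genes lay on 20 chromosomes, and the median log2 ratio was above 0 on 18 of them. Chromosome 7 held the most, 62 genes, of which 44 were above 0, with a median of 0.18 against -0.03 for the other measured genes of that chromosome. Chromosome 17 held 36, of which 28 were above 0 (median 0.33, other genes -0.01). On chromosome 13, 19 of 20 were above 0 (median 0.40, other genes -0.02), and on chromosome 8, 15 of 19 (median 0.40, other genes -0.05). The medians below 0 were those of chromosome 4, with 4 of 9 genes above 0 and a median of -0.05, and chromosome 10, with 2 of 4 and -0.45.

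In the order of protein-coding genes, 69 Zfp genes formed 16 runs of 3 or more direct neighbours, the longest with 8 genes. The median log2 ratio was above 0 in 15 of the 16 runs, and in 6 runs every gene was above 0. The genes in runs had a median of 0.29 and the 181 others 0.20, and 149 Zfp genes next to no other member had 0.22. The 154 measured genes that lie directly beside a Zfp gene and are not Zfp genes had a median of -0.0025, with 77 above 0.

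The longest run without a gene below 0 lay on chromosome 13. From Zfp874a to Zfp729a, its 7 genes had log2 ratios from 0.11 (Zfp87, 419 in CD103+ Th1 and 388 in Th1) to 1.01 (Zfp874b, a bound), with a median of 0.53. Zfp58 had 330 and 222, Zfp748 420 and 291, Zfp729b 476 and 306, and Zfp729a 235 and 169, between 1.39-fold and 1.56-fold higher. In this run all genes but Zfp87 were at least 1.3-fold brighter in CD103+ Th1 on their brightest probe set. The 3 measured probe sets of Zfp729a disagreed, from -0.41 to 0.48 on the log2 scale, with a mean of 0.11.

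On chromosome 17, Zfp995, Zfp942 and Zfp943 had log2 ratios from 0.40 to 0.93, and Zfp943 led them at 840 in CD103+ Th1 against 442 in Th1. Zfp955b, Zfp81 and Zfp101 were close together, from 0.23 to 0.35. On chromosome 8, Zfp709, Zfp882, Zfp617 and Zfp961 had ratios from 0.04 to 0.94, with Zfp961 at 615 and 320, 1.92-fold higher. Zfp869, Zfp963 and Zfp866 had 0.12 to 0.66. With the runs around Zfp959 and Zfp874b these are the 6 in which every gene was above 0 on its brightest probe set. Zfp119a, Zfp119b, Zfp874b and Zfp882 passed the floor only in CD103+ Th1, which fixed their direction. The probe sets of Zfp942 disagreed, from -0.48 to 0.55, with a mean of 0.03.

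Other runs were mixed, so neighbours did not always go together. On chromosome 6, Zfp777, 2.52-fold lower, stood directly before Zfp746, which had 624 in CD103+ Th1 and 377 in Th1, 1.66-fold higher, and Zfp398, Zfp282, Zfp212 and Zfp956 lay between -0.12 and 0.29. From Zfp677 to Zfp983 on chromosome 17, the 7 genes ranged from -0.53 (Zfp983) to 0.90 (Zfp948, 223 and 119), and Zfp54, Zfp51, Zfp53 and Zfp52 lay in between. The probe sets of Zfp983 disagreed, from -0.53 to 0.78, with a mean of 0.22. Zfp944, Zfp758 and Zfp946 on chromosome 17 formed the run with a median below 0, at -0.20, although the mean of all probe sets gave 0.12.

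The remaining runs lay nearer 0. On chromosome 7, the 8 genes Zfp420, Zfp27, Zfp383, Zfp74, Zfp568, Zfp14, Zfp82 and Zfp566 had ratios from -0.32 to 0.57. Zfp524, Zfp865, Zfp784 and Zfp580 had -0.27 to 0.86, Zfp329, Zfp110 and Zfp128 had -0.27 to 0.60, Zfp667, Zfp583, Zfp78 and Zfp28 had -0.25 to 0.35, and Zfp607b, Zfp60, Zfp626 and Zfp59 had -0.14 to 0.36. On chromosome 17, Zfp472, Zfp952, Zfp763 and Zfp563 had -0.21 to 0.56. On chromosome 18, Zfp397, Zfp35 and Zfp24 had -0.03 to 0.55.

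**Figure D5:**
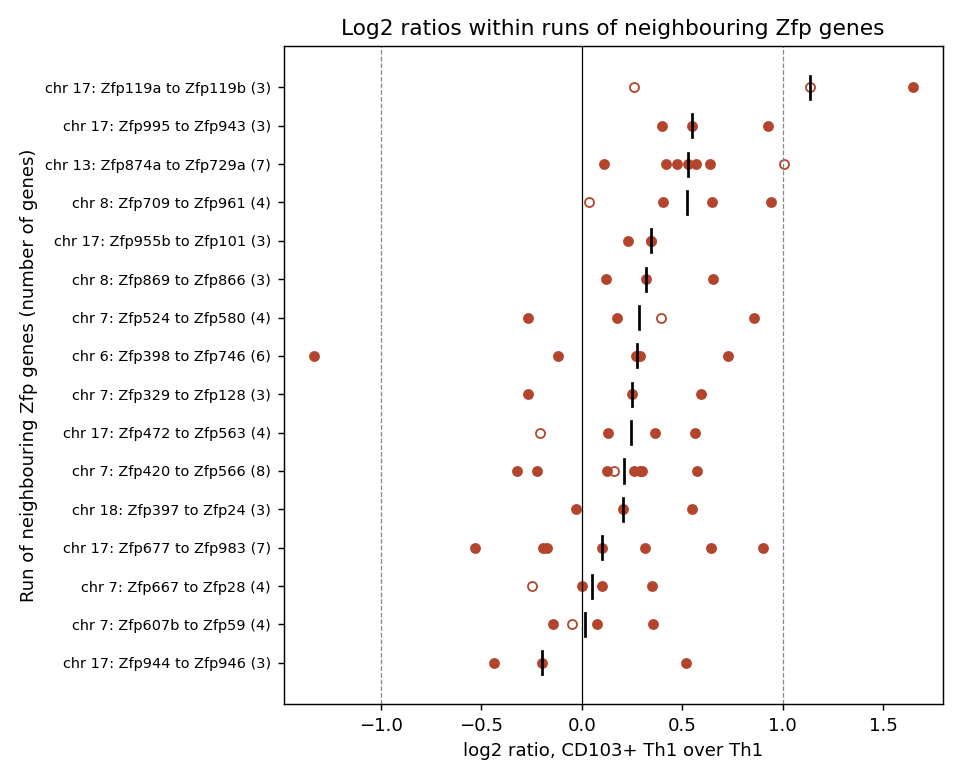
Log2 ratio between the CD103+ Th1 and Th1 arrays for each gene (points) of the 16 runs of 3 or more neighbouring Zfp genes, sorted by their median (black bars), with open points for lower bounds of the fold and dashed lines at 2-fold. The median is above 0 in 15 runs, highest at 1.13 for the run of Zfp119a, Zfp959 and Zfp119b and lowest at -0.20 for Zfp944 to Zfp946. The value of 1.13 is the bound of Zfp119b.

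The promoter table held 251 windows of 207 of the 250 Zfp genes. Their median GC content was 57.0%, against 60.7% for 11597 windows of all measured genes, and the ratio of observed to expected CpG was 0.69 against 0.75. The CCAAT box stood in 46.6% of the Zfp windows and 37.5% of those of measured genes, the ETS core in 37.1% and 31.0%, and both together in 17.9% and 11.2%. In windows of all genes of the table, the shares were 37.4%, 16.9% and 5.95%. Both motifs stood in 16.9% of the 183 windows of Zfp genes with a ratio above 0 and in 20.6% of the 68 windows of those below 0, and in 24.4% of the 45 windows of those at least 1.5-fold higher.

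Other motifs were also searched on both strands, among them strings for STAT and SMAD factors, which act downstream of cytokines in the media. TTCNNNGAA, the palindrome bound by STAT factors, stood in 13.5% of Zfp windows, 6.78% of windows of measured genes and 8.30% of all windows, with 12.6% for Zfp genes above 0 and 16.2% for those below 0. It stood in 2 of the 45 windows of Zfp genes at least 1.5-fold higher (4.44%). GTCTAGAC, a SMAD palindrome, stood in 1 Zfp window (0.398%), against 0.285% of windows of measured genes and 0.213% of all. The E-box CACGTG stood in 6.77%, 9.92% and 7.15%, and TGACGTCA, the cAMP response element, in 4.78%, 3.05% and 1.79%. A match is a string of letters in the window and not a binding site.

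Related genes give a setting for these values. Of 24 genes of the KRAB corepressor machinery, 22 had a named probe set and all 22 were measured, with a median log2 ratio of 0.03, 12 above 0, and 0 at least 2-fold different. Trim28, the corepressor itself, measured 4788 in CD103+ Th1 against 5354 in Th1, 1.12-fold lower, and Setdb1, its histone methyltransferase, had 810 and 778. The largest ratios of this list were those of the deacetylase gene Hdac2 (1777 and 3261, 1.84-fold lower), the NuRD remodeller gene Chd3 (2067 and 1147, a log2 ratio of 0.85), Atf7ip (1797 and 1004, 1.79-fold higher, with 3 probe sets from -0.24 to 0.84) and the heterochromatin protein gene Cbx3 (82.1 and 136, 1.66-fold lower). With probe sets without suffix letters, 18 genes of the list had a median of 0.19.

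Of 60 genes named Zbtb, Zkscan or Zscan, families that carry the same kind of finger, 50 were measured, with a median log2 ratio of 0.19 and 36 above 0. Among 35 measured Zbtb genes, 28 were above 0 and the median was 0.30, while 8 Zscan genes had a median of -0.07 with 2 above 0. The largest ratios were those of Zbtb20 (568 in CD103+ Th1 and 222 in Th1, 2.56-fold higher), Zscan12 (198 and 431, 2.18-fold lower), the T cell repressor gene Zbtb32 (954 and 1963, 2.06-fold lower) and Zbtb11os1 (298 and 147, 2.03-fold higher), an opposite-strand transcript that falls under the name. The Zfp36 genes, which encode mRNA-decay proteins with another kind of finger, were each higher, Zfp36l1 1.72-fold, Zfp36l2 1.58-fold and Zfp36 1.58-fold. All 5 Ikaros genes, lymphocyte factors with C2H2 fingers, were above 0 on their brightest probe set. Ikzf3 was 2.65-fold, Ikzf2 2.19-fold, Ikzf4 2.16-fold and Ikzf5 1.37-fold higher. Ikzf1 was 1.23-fold higher, but its 2 probe sets disagreed, with log2 ratios of -0.43 and 0.30.

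The cultures carried the T cell label in their markers. All 9 named pan T cell markers were measured, with a median log2 ratio of 0.24. Of the 3 CD4 markers, Cd4 measured 1081 in CD103+ Th1 against 973 in Th1, and Zbtb7b had 514 and 481. The third, Cd40lg, was under the floor on both arrays, at 17.2 and 60.3. The summed signal of the CD8 markers Cd8a and Cd8b1 was 3647 in CD103+ Th1 and 1163 in Th1. The 5 measured probe sets of Cd8a had log2 ratios from 0.24 to 2.16. Of 9 named B cell markers 4 were measured, and all 9 summed to 8302 and 2920, of which Ighm gave 7712 and 2443. The measured probe sets of Ighm disagreed, with log2 ratios from -0.53 to 1.84. Cd79b had 244 in CD103+ Th1 and, under the floor, 75.8 in Th1. Cd22 had 99.0 in CD103+ Th1 and 81.9 in Th1, and Blk was lower in CD103+ Th1, with 96.8 and 115. Cd79a, Ms4a1, Pax5, Cr2 and Blnk were under the floor on both arrays. Of 10 named myeloid markers 4 were measured, with 1 above 0 and a median log2 ratio of -0.34. All 10 summed to 1115 and 798, but Mpeg1 alone, at 660 and, under the floor, 5.75, was higher in CD103+ Th1 among the 4. Cd68 (104 and 233) and Csf1r (118 and 187) were lower, Csf1r with probe sets from -0.67 to -0.06 on the log2 scale. Adgre1 had 57.0 in CD103+ Th1, under the floor, and 79.1 in Th1, just above it, for a log2 ratio of -0.01. The floor fixed the direction of Mpeg1 and Adgre1. Lyz2, Itgam, Cd14, Fcgr3, Spi1 and Cybb were under the floor on both arrays. Of 4 named NK markers 2 were measured, and all 4 summed to 3620 and 2323, while all 3 named erythroid markers were under the floor. In such bulk samples fewer cells of a type and less RNA per cell cannot be told apart, and the part of these markers in the ratios of the Zfp genes was not tested.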

How the data were processed

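The values are the deposited signal intensities of the probe sets, linear and not logged. GCOS made them, per the submitters' processing notes, with a scaling target and filters that the sources used here do not give. Both arrays had 45037 probe sets, with medians of 78.0 and 78.8 and 2% trimmed means of 498, and were not rescaled. The number of arrays limits the precision.

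Probe sets with 1 gene symbol in the platform annotation (34945) were used, and 932 with several and 9160 with none were left out. All 250 Zfp symbols matched the GRCm38.p6 gene table, where 248 are protein-coding, Zfp783 a long noncoding RNA and Zfp862-ps a pseudogene. A gene was read from its brightest probe set (mean of both log2 signals), values under the floor were set to it, and the log2 ratio was CD103+ Th1 over Th1.

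Named were the 12 highest and 12 lowest genes at 2 times the floor or more with measured probe sets on 1 side of 0, the 5 brightest, the 3 nearest the floor on each side, genes with known roles, all genes of runs of 3 or more neighbours, and up to 4 genes of each other list. A few others, among them Zfp689, Zfp296, Trim28, Setdb1, Ikzf5 and the marker genes, were picked with their values in view. Members, lists and motifs were chosen with earlier results of these data known. A planned split by KRAB domain and finger number was not made, since protein sequences were not used here. The steps were tested on simulated data. Python 3.11.15, numpy 2.4.6 and pandas 2.3.3 were used. The alternatives were 3 scalings, floors at the 25th and 75th percentile, a pseudocount, each array's own median, 2 other choices of probe set, and thresholds of 1.5-fold and 4-fold.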

Additional observations from a re-analysis of the deposited data

How the results depend on the processing

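Over 9 alternatives of scaling, floor and probe set, the median log2 ratio of the Zfp genes ran from 0.18 (quantile normalization) to 0.25 (floor at the 75th percentile), and that of all measured genes from -0.05 to -0.01. The share above 0 ran from 67.6% to 78.5%, against 45.9% to 49.1% of all measured genes. The lowest share, 67.6%, came from a floor at the 25th percentile, which took in 306 genes. That floor gave 16 genes at least 2-fold higher, against 11, and 16 lower, against 7, and the floor at the 75th percentile, with 107 genes, gave 1 higher and 1 lower. A threshold of 1.5-fold gave 43 higher and 12 lower, and one of 4-fold gave 0 and 1. Of 1084 values of 128 single genes under these alternatives, 1060 kept their side of 2-fold, 18 fell short of it and 6 newly passed it. The direction changed in 7 values of 6 genes, none of them past 2-fold. With the mean of probe sets Zfp106 was -0.24, Zfp983 0.22, Zfp944 0.12, Zfp397 0.29 and Zfp28 -0.14, and with quantile normalization Zfp451 was -0.03 and Zfp28 -0.06. Zfp608 was -0.88 with the higher floor, Zfp593 was -0.73 with the mean of probe sets, and Zfp691, Zfp874b and Zfp362 fell just short of 2-fold with quantile normalization. With the higher floor Zfp120 was 0.74, Zfp703 0.11, Zfp938 -0.43 and Zbtb20 0.27. No paired analysis was possible because each group has 1 array. The split by KRAB domain was not run. Low signals near background limit what can be said of genes close to the floor.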

Other observations

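Imprinted genes are silenced on 1 parental copy, in part through the Zfp proteins that guard their control regions. Of 18 imprinted genes with a named probe set, 11 were under the floor on both arrays, among them Igf2, Peg3, Mest, Snrpn, Cdkn1c and Grb10. The 7 measured had a median log2 ratio of 0.16, with 5 above 0. Of these 7, 0 were at least 2-fold different, against 5.04% higher and 4.88% lower of all measured genes. Igf2r, which encodes a receptor that clears insulin-like growth factor, had the largest ratio, measuring 2803 in CD103+ Th1 against 1425 in Th1, 1.97-fold higher. Both of its probe sets were above 0, with log2 ratios of 0.81 and 0.98. Meg3, a noncoding RNA gene, had 111 and 148, 1.32-fold lower, with probe sets from -0.41 to 0.30. With a floor at the 25th percentile the median of the list was -0.13, so its direction depends on the floor.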
